A study of Mus musculus with 12 samples.

Results

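The comparison covers 6 of the 12 mRNA-Seq libraries of the series: 3 from hippocampal neuronal progenitor cells (mNPCs) of genotype nes-cre+/-Kmt2a+/LSL, called restored here, and 3 from mNPCs of genotype Kmt2a+/+, called wild-type. The libraries were chosen by their genotype labels. The cells were grown from the hippocampus of newborn C57BL/6J mice and expanded with FGF-2 and EGF. The LSL allele, a loxP-flanked stop cassette in an intron of Kmt2a, comes from a single founder line, and it leaves 1 functional copy of the gene until Cre removes the cassette. Restored cells carried 1 LSL allele and a Cre transgene driven by the nestin promoter, which is active in neural progenitors, whereas wild-type cells carried neither. The compared genotypes therefore differ in the recombined allele and in the transgene, and these cannot be told apart by this comparison alone. Values of the other genotypes, Kmt2a+/LSL (the stop cassette, no Cre) and nes-cre+/- (the transgene, no LSL allele), with 3 libraries each, are given beside the genes that need them. The question is how far the transcriptome of the restored cells lay from that of wild-type cells, over 16655 of the 18911 genes in the table.

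KMT2A is a histone methyltransferase that places methyl groups on lysine 4 of histone H3 (H3K4), a mark of active promoters and enhancers. It works in a complex with WDR5, RBBP5, ASH2L, DPY30 and menin, and loss of 1 functional copy causes Wiedemann-Steiner syndrome, a disorder of growth and intellectual development. Nestin is an intermediate filament of neural stem and progenitor cells, so nestin-Cre acts before these cells become neurons, astrocytes or oligodendrocytes.

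Kmt2a itself (ENSMUSG00000002028, chromosome 9 of GRCm38, 44803355 to 44881296) was measured first. Its normalized count, the count divided by a scaled library size, was 6836, 7131 and 6661 in wild-type replicates 1 to 3 and 6466, 6752 and 6149 in restored replicates 1 to 3. The ranges overlapped, though each restored library lay below the wild-type library of the same replicate number. Every restored library lay above the Kmt2a+/LSL libraries, at 3937, 3945 and 3956. The nes-cre+/- libraries had 6717, 7361 and 7103. The means were 6876 ± 237 in wild-type and 6456 ± 302 in restored cells (SD, n = 3 each). The log2 fold change of restored against wild-type was -0.10, with a 95% interval from -0.45 to 0.24 (edgeR's quasi-likelihood test, adjusted p = 1.00). A two-sided exact permutation test of the same 6 values gave p = 0.20, where the smallest p this design allows is 0.10. On replicates 2 and 3 alone the log2 fold change was -0.11.

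Some of the 6 libraries stood apart from the rest, and they set the precision of what follows. Library totals lay between 18280008 and 28596919 counts, so that 3 counts correspond to 0.105 to 0.164 CPM (counts scaled to library size). Wild-type replicate 1 had the smallest total, 15176 genes with a count against 16205 to 17073 in the other 11 libraries, and 12.7% of its counts from mitochondrially encoded genes. Restored replicate 1 had 10.3% of its counts from those genes, and the other 10 libraries had 3.96% to 6.88%. In wild-type replicate 1, genes in the lowest quintile of transcript GC content lay 0.76 above the mean of the 12 libraries on the log2 scale, and those in the highest quintile lay at -1.51. Restored replicate 1 leaned the same way, from 0.29 to -0.25, and wild-type replicate 3 the opposite way, from -0.46 to 0.47. Restored replicate 3 had 3.86% of its counts in ribosomal protein genes, against 2.26% to 3.00% elsewhere. The Y-linked genes Ddx3y, Uty, Kdm5d and Eif2s3y summed to 0.893 CPM in wild-type replicate 3 and 1.37 CPM in restored replicate 3, and to between 162 and 272 CPM in the other 4 libraries. Results are therefore also given with replicates 2 and 3 alone, that is, without wild-type replicate 1 and restored replicate 1. Each genotype then held 1 library with and 1 without such a Y-linked signal.

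**Figure D1:**
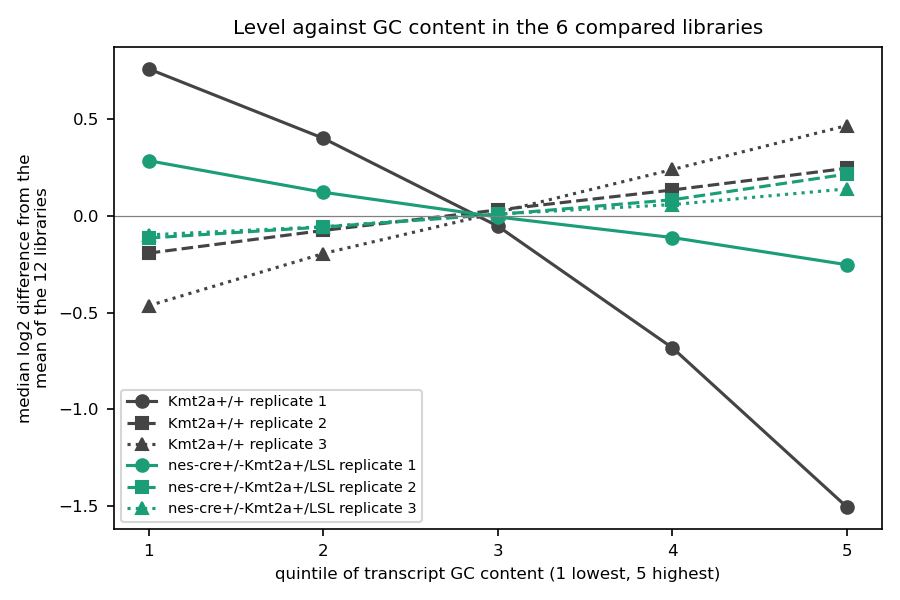
Median log2 difference of each of the 6 libraries from the mean of the 12 libraries (vertical axis), by quintile of the GC content of the longest transcript (horizontal axis, lowest to highest). Wild-type replicate 1 fell from 0.76 to -1.51 across the quintiles, restored replicate 1 from 0.29 to -0.25, and the other 4 libraries sloped upward.

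Across all genes, restored and wild-type cells differed in no gene at an adjusted p under 0.05 (0 of 16655 genes, 0%, edgeR). The smallest adjusted p, 0.153, belonged to Nek7. Without adjustment, 179 genes (1.07%) were higher and 98 (0.588%) were lower in restored cells at p under 0.05. These 277 genes (1.66%) are fewer than the 833 that 5% of the genes tested would give, and 206 of them had a mean normalized count under 50. DESeq2's Wald test on the same 9 libraries called 7 genes (0.042%), 4 higher and 3 lower, with 240 at an unadjusted p under 0.05. With an empirical null, whose width was fitted to its central z-scores, 195 of the 16655 genes were called, 102 higher and 93 lower. The paper's own procedure, DESeq2 z-scores passed to fdrtool, is nearest to this setting. The number of adjusted calls thus depended on the test. The unadjusted edgeR count rested on wild-type replicate 1: without it, 1830 genes (11.1%) passed (978 higher and 852 lower), while the adjusted count stayed at 0. In that fit 5% of the genes tested is 826. Without wild-type replicate 3 the unadjusted count was 528. Among replicates 2 and 3 alone, 595 genes (3.64%) were higher and 472 (2.89%) lower, again with 0 calls after adjustment. There, 5% of the genes tested is 817. With an offset for GC content, 237 were higher and 205 lower.

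A missing call is not evidence of equal levels, so the 95% interval of each fold change was set against 2-fold. For 7291 genes (43.8%) the whole interval lay within 2-fold in either direction. For 11.4% it lay within 1.5-fold. The half-width of the interval had a median of 0.90 on the log2 scale, so for the typical gene a difference of almost 2-fold could be missed. The point estimates were much closer to 0: the median log2 fold change was -0.01, its median absolute size was 0.18, and 8.80% of genes had an estimate beyond 2-fold. With replicates 2 and 3 alone, intervals narrowed to a median half-width of 0.56, and 9702 of 16336 genes (59.4%) lay within 2-fold and 28.8% within 1.5-fold. The median absolute log2 fold change was then 0.23. The relative spread of a gene between libraries of a genotype (edgeR's common biological coefficient of variation) was 0.412 with all libraries, 0.253 without wild-type replicate 1 and 0.222 with replicates 2 and 3 alone. Leaving out restored replicate 1 alone did not narrow the intervals: 31.7% of genes lay within 2-fold. An offset for GC content gave 57.5% with all libraries and 61.1% with replicates 2 and 3 alone. All these fits also took spread from the Kmt2a+/LSL libraries. In a fit of the 6 compared libraries alone, 34.0% of 16118 genes lay within 2-fold and 2.16% within 1.5-fold. The median half-width was then 1.04, so for the typical gene a 2-fold difference could be missed.

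**Figure D2:**
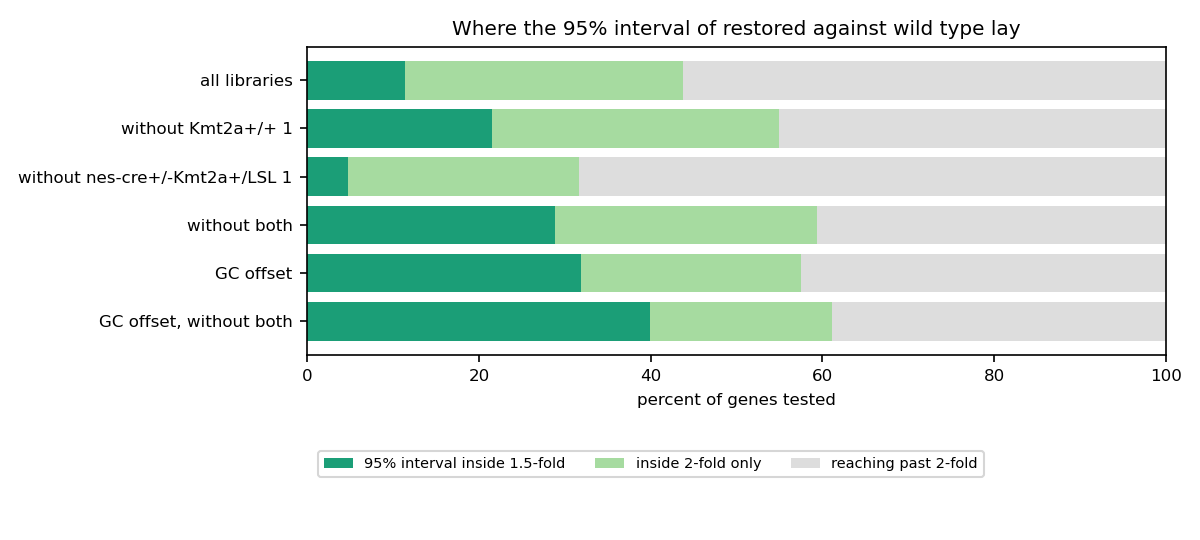
Share of the tested genes (percent, horizontal axis) whose 95% interval of the fold change lay within 1.5-fold, within 2-fold only, or reached past 2-fold, under 6 choices of libraries and GC offset. With all libraries 43.8% lay within 2-fold, against 59.4% with replicates 2 and 3 alone.

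How much could be read from a gene depended on its level. Of 4986 genes with a mean normalized count under 50, 1.83% had an interval within 2-fold. The share was 45.5% of the 4167 genes with 50 to 500, 70.2% of the 6602 genes with 500 to 5000, and 74.4% of the 900 genes at 5000 or more. On replicates 2 and 3 alone, the shares of the last 3 classes were 65.0%, 92.1% and 91.0%. In the class of 500 to 5000, 54.3% of genes then lay within 1.5-fold. Genes under 50 stayed at 2.03%, so for nearly all of them the data do not place the levels within 2-fold of each other.

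Distances between single libraries gave the same comparison without a model. The absolute log2 difference per gene (CPM with a prior count of 2) had a median of 0.32 between wild-type replicates 2 and 3 and of 0.26 between restored replicates 2 and 3. The 4 pairs of a wild-type with a restored library among these had medians from 0.23 to 0.34, which overlaps the distances within each genotype. Between 9.58% and 14.2% of genes differed by more than 2-fold in the 4 pairs across genotypes, against 12.0% within wild-type and 11.7% within restored. With wild-type replicate 1, the medians within wild-type reached 1.04, and no pair across genotypes exceeded 0.89. The Pearson correlation across genes was 0.978 between wild-type replicates 2 and 3, 0.974 between restored replicates 2 and 3, and 0.969 to 0.982 across genotypes. Genes are not independent replicates, so these correlations are descriptions.

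**Figure D3:**
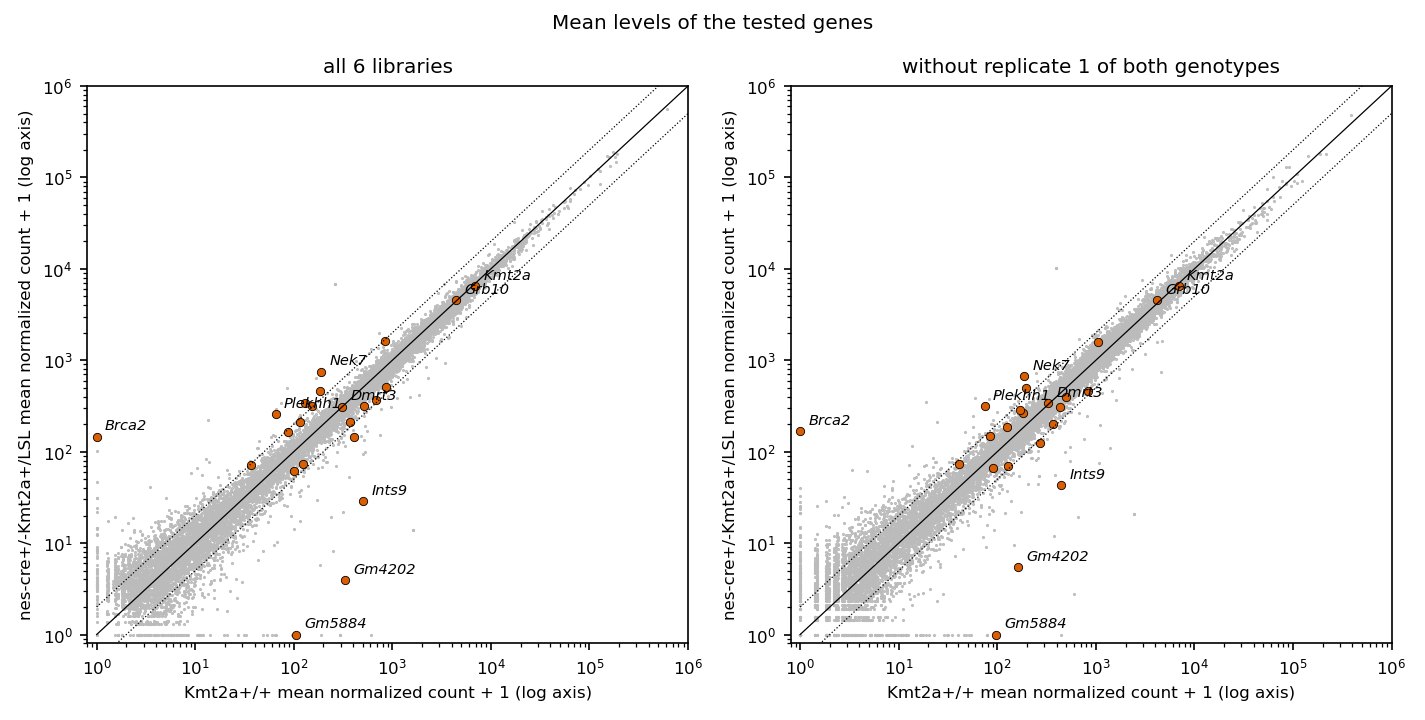
Mean normalized count plus 1 in wild-type (horizontal) and restored cells (vertical), on log axes, for the 16655 genes tested, with all 6 libraries (left) and with replicates 2 and 3 alone (right). The solid line marks equal levels, dotted lines mark 2-fold, and orange points are Kmt2a, Grb10, Dmrt3, Nek7 and the 10 highest and 10 lowest genes. Kmt2a, Grb10 and Dmrt3 lie near the solid line in both panels, and Nek7, Brca2, Gm5884, Gm4202 and Ints9 lie outside the dotted lines.

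The genes furthest apart were taken from those with an unadjusted p under 0.05, a mean normalized count of at least 50 and no overlap between the 3 restored and the 3 wild-type libraries. Over all genes tested, 604 (3.63%) did not overlap, 394 of them higher in restored cells, and 44 met all 3 conditions, 24 higher and 20 lower. The 10 highest and the 10 lowest are described here. Having been picked by their values in this contrast, their fold changes are descriptions. Levels in Kmt2a+/LSL and nes-cre+/- are set beside some of them, and no level is shown to be particular to restored cells, since comparisons with those genotypes share the wild-type libraries. Apart from Nek7, every gene of the 20 had an adjusted p of 1.00 with edgeR.

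Nek7, which encodes a kinase of spindle assembly that is also needed for inflammasome activation, stood furthest from the spread (ENSMUSG00000026393, chromosome 1, 138482875 to 138620141). Its normalized counts were 199, 192 and 179 in wild-type and 910, 607 and 737 in restored cells. Every restored library was more than 3 times above the highest wild-type library. The means were 190 ± 10.2 and 752 ± 152 (SD, n = 3 each), and edgeR put the log2 fold change at 1.97 (SE 0.23, adjusted p = 0.153, from 2.94e-41 to 1.00 over the alternatives). Leaving out single libraries kept it between 1.82 and 2.11, and it was 1.84 with replicates 2 and 3 alone. The fit of all 12 libraries called it, with an adjusted p of 0.0112. The other genotypes had means between these, with 410, 445 and 497 in Kmt2a+/LSL and 526, 666 and 549 in nes-cre+/-. In the 12-library fit the log2 fold change of nes-cre+/- against wild-type was 1.61 (SE 0.20, adjusted p = 0.0848), that of Kmt2a+/LSL against wild-type was 1.25 (SE 0.20, adjusted p = 0.306), and that of restored against nes-cre+/- was 0.37 (SE 0.19, adjusted p = 1.00). These comparisons share libraries with the main comparison.

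**Figure D4:**
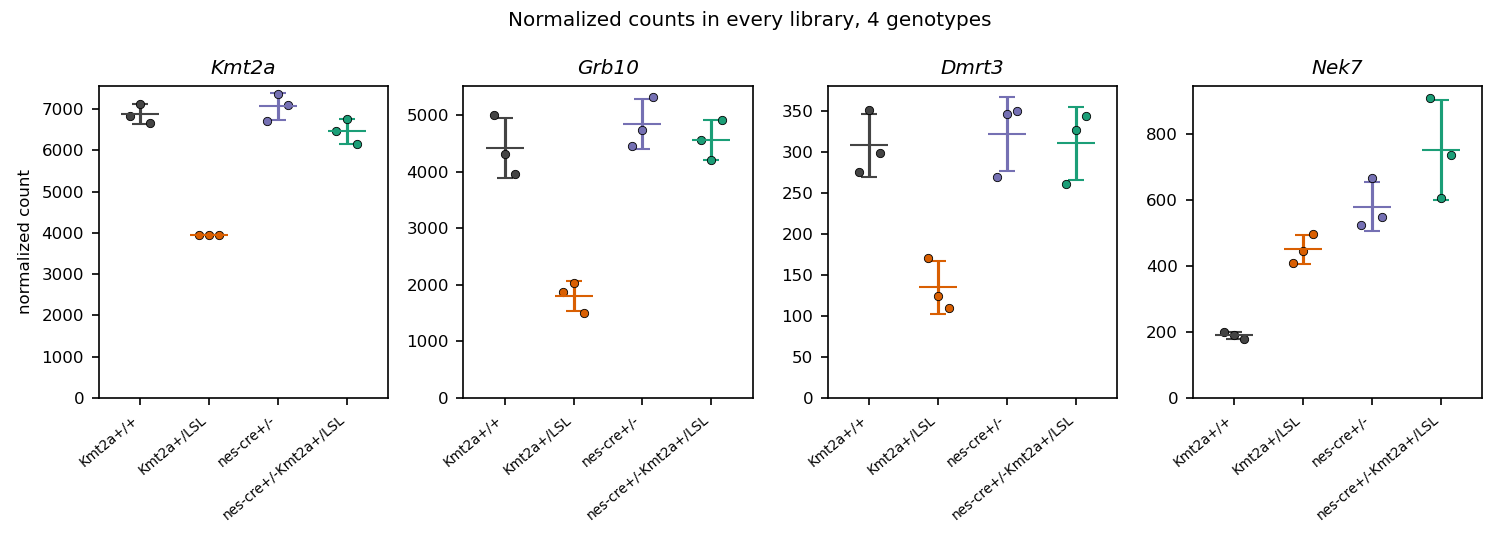
Normalized counts of Kmt2a, Grb10, Dmrt3 and Nek7 in the 12 libraries by genotype, where points are libraries, horizontal marks are means and bars are SD (n = 3). For Kmt2a, Grb10 and Dmrt3 the restored libraries overlap the wild-type libraries, and for Nek7 the 3 restored libraries, from 607 to 910, lie above the wild-type libraries at 179 to 199.

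Some of the 20 genes had no counts in a whole genotype. Brca2, a gene of homologous recombination on chromosome 5 (150522630 to 150570329), had 0 counts in all 3 wild-type libraries and 100, 181 and 155 normalized counts in the restored libraries. Against a floor of 3 counts over the pooled wild-type libraries, it was at least 149-fold higher in restored cells. It had 150, 0 and 0 in Kmt2a+/LSL and 22, 102 and 85 in nes-cre+/-, so counts of 0 were not limited to wild-type libraries. Gm5884, a processed pseudogene on chromosome 6, had 118, 88 and 106 in wild-type and 0 in every restored library, at least 98.9-fold lower. It had 55, 0 and 4 in Kmt2a+/LSL and 31, 0 and 2 in nes-cre+/-.

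Other genes had levels near 0 in part of the libraries of a genotype. Gm4202, a processed pseudogene, had 659, 89 and 237 in wild-type and 0, 9 and 0 in restored cells, and reached at most 47 in the other genotypes. Reads of a processed pseudogene can be shared with its parent gene, so these estimates are uncertain. Ints9, a subunit of the Integrator complex that cleaves snRNA transcripts, had 624, 160 and 732 in wild-type and 0, 84 and 0 in restored cells. Its nes-cre+/- libraries had 658, 557 and 594, within the wild-type range, whereas Kmt2a+/LSL replicate 3 had 33 against 571 and 631 in the other replicates of that genotype. A count of 3 or fewer in at least 1 of the 6 libraries occurred in 4 of the 20 genes, against 232 of the 11669 genes (1.99%) with a mean of at least 50. Whether expression or the assignment of reads set these zeros was not tested.

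Among the genes that were higher in restored cells, Plekhh1 had 46, 9 and 138 in wild-type and 140, 293 and 337 in restored libraries, so the highest and lowest of these nearly met. Primpol, a primase that restarts stalled replication forks, had 49, 127 and 214 against 446, 315 and 254. Nat8f1, of an N-acetyltransferase family, had 155, 81 and 309 against 368, 480 and 517. In each of these 3 genes the wild-type libraries spread over more than 3-fold. The log2 fold change of Plekhh1 was 1.94, and 3.28 without wild-type replicate 3, and that of Primpol was 1.35, and 0.72 with replicates 2 and 3 alone. Plekhh1 had 344, 250 and 177 in Kmt2a+/LSL and 209, 262 and 263 in nes-cre+/-, all above every wild-type library. Nat8f1 had 454, 298 and 603, and 444, 253 and 459, mostly above the wild-type range. Primpol had 171, 206 and 137 in Kmt2a+/LSL, inside the wild-type range, and 102, 303 and 312 in nes-cre+/-.

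Pmaip1 encodes NOXA, a pro-apoptotic target of p53. It had 97, 182 and 180 in wild-type and 415, 240 and 289 in restored cells, and its log2 fold change of 1.02 became 0.52 with replicates 2 and 3 alone. Tbl1xr1, a subunit of the NCoR/SMRT corepressor complex, had 432, 1085 and 1005 against 1767, 1589 and 1561. Its log2 fold change went from 0.95 (SE 0.30) to 0.58 (SE 0.12) with replicates 2 and 3 alone. Wild-type replicate 1 was the lowest wild-type library for both genes. For Tbl1xr1 the other genotypes lay near the restored level, with 1605, 1639 and 1513 in Kmt2a+/LSL and 1267, 1561 and 1720 in nes-cre+/-. Pmaip1 had 386, 283 and 297 in Kmt2a+/LSL and 224, 266 and 282 in nes-cre+/-, all above every wild-type library.

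Rcor3, a corepressor of the CoREST family, had 92, 96 and 68 in wild-type and 195, 140 and 152 in restored cells. Tfcp2l1, a transcription factor of naive pluripotent cells, had 28, 41 and 40 against 66, 78 and 68. Ilvbl had 92, 88 and 162 against 268, 170 and 200. Rcor3 and Tfcp2l1 kept log2 fold changes of 0.81 and 0.85 with replicates 2 and 3 alone, beside 0.91 and 0.94 with all libraries, while Ilvbl went from 0.88 to 0.53. Rcor3 had 145, 146 and 136 in nes-cre+/- and 130, 149 and 128 in Kmt2a+/LSL, all above every wild-type library. The same held for Tfcp2l1, with 54, 74 and 56 in nes-cre+/- and 71, 47 and 60 in Kmt2a+/LSL. Ilvbl overlapped the wild-type range in both, with 121, 111 and 243 in nes-cre+/- and 176, 143 and 99 in Kmt2a+/LSL.

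Among the genes that were lower in restored cells, Pfkfb3, an activator of glycolysis, had 923, 966 and 710 in wild-type and 603, 338 and 579 in restored cells. Cxcr4, the receptor for the chemokine CXCL12, which guides migrating granule cell precursors of the dentate gyrus, had 111, 160 and 94 against 78, 62 and 77. Emsy, a transcriptional repressor that binds BRCA2, had 376, 293 and 439 against 240, 268 and 128. The log2 fold changes of these 3 genes were -0.79, -0.77 and -0.81 with all libraries and -0.89, -0.88 and -0.89 with replicates 2 and 3 alone.

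Prdm4, a zinc-finger transcription factor, had 1052, 486 and 502 in wild-type and 309, 416 and 370 in restored cells. Its log2 fold change of -0.91 became -0.35 with replicates 2 and 3 alone, and wild-type replicate 1 was the highest library. Pxk had 668, 494 and 376 against 321, 282 and 340, Ttc41 had 118, 95 and 85 against 48, 60 and 71, and 4933427D14Rik had 693, 346 and 189 against 179, 136 and 113. These 3 genes had log2 fold changes of -0.72, -0.73 and -1.53 with all libraries, and of -0.50, -0.47 and -1.11 with replicates 2 and 3 alone. Without wild-type replicate 1, the highest wild-type library of each, Pxk was at -0.48 and 4933427D14Rik at -0.91. Pxk had 370, 342 and 310 in Kmt2a+/LSL and 321, 372 and 372 in nes-cre+/-, all below every wild-type library. For Ttc41 and 4933427D14Rik, both of these genotypes overlapped the wild-type range.

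The 7 genes that DESeq2 called included Nek7 (adjusted p = 3.51e-13), Brca2 (adjusted p = 9.51e-07) and Gm5884 (adjusted p = 0.000765). The other 4, named here after their values were seen, were low or present in a single library. Fbrs had 254 raw counts in restored replicate 1 and 0 in the other 5 libraries, and the pseudogene Gm18588 had 127 in wild-type replicate 1 and 0 elsewhere. Rmdn2 had 0 counts in wild-type and 75, 35 and 17 in restored libraries, and Zfp109 had 29, 35 and 27 in wild-type and 0 in restored libraries. Processed pseudogenes made up 51 of the 277 genes with an unadjusted p under 0.05 in edgeR, or 6.97% of the 732 tested, against 1.40% of 15526 protein-coding genes. At a mean normalized count of at least 50 the shares were 12.9% of 70 and 0.523% of 11483.

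A further view used genes that differed between Kmt2a+/LSL and nes-cre+/- cells without adjustment, chosen without any of the 6 libraries compared. A fit of the 3 Kmt2a+/LSL and 3 nes-cre+/- libraries gave 658 of 16045 genes (4.1%) with an unadjusted p under 0.05, 379 lower and 279 higher in Kmt2a+/LSL. This is fewer than the 802 genes that 5% of those tested would give, so most of the chosen genes need not respond to the LSL allele. Kmt2a and Grb10 were called after adjustment (2 genes, 0.0125%), at -0.84 ± 0.07 and -1.42 ± 0.12 on the log2 scale (± SE, edgeR adjusted p = 0.0186 for each). The restored and wild-type libraries, fitted on their own over 16118 genes, then gave the readout.

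Of the genes lower in Kmt2a+/LSL, 355 could be read, and their median log2 fold change in restored against wild-type cells was -0.03, beside -0.02 for all genes read. They split into 165 higher and 190 lower, or 53.5% lower, against 53.1% of all genes. Of the genes higher in Kmt2a+/LSL, 266 could be read, with a median of -0.03 and 45.1% higher, against 46.9% of all genes. Of these 2 groups, 3 and 5 genes had an unadjusted p under 0.05, against 1.14% of all genes. Among replicates 2 and 3 alone the medians were -0.06 and 0.01, beside 0.00 for all genes. With the replicate block, which chose 518 and 442 genes, they were 0.10 and 0.02, beside 0.05. Medians near 0 in such groups say little about a return to wild-type levels. Precision was low as well: 17.7% of the first and 27.8% of the second group had an interval within 2-fold, against 34.0% of all genes in this 6-library fit, and 39.6%, 49.0% and 58.1% with replicates 2 and 3 alone. The relative spread was 0.484 in the 6 restored and wild-type libraries, against 0.174 in the 6 libraries used for the choice.

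Grb10, an imprinted gene for an adaptor that restrains insulin and IGF-1 receptor signaling (ENSMUSG00000020176, chromosome 11, 11930508 to 12038683), had 4997, 4309 and 3959 in wild-type and 4568, 4202 and 4919 in restored cells. The 2 ranges overlapped, and the Kmt2a+/LSL libraries, at 1865, 2031 and 1508, lay below both. The log2 fold change was 0.03 (95% interval -0.39 to 0.46, adjusted p = 1.00 with edgeR), and 0.12 with replicates 2 and 3 alone. Dmrt3, a transcription factor of the dorsal telencephalon (ENSMUSG00000042372, chromosome 19, 25610301 to 25623921), had 276, 351 and 299 against 261, 327 and 344. Its Kmt2a+/LSL libraries had 171, 124 and 110. The log2 fold change had a 95% interval from -0.57 to 0.56 with all libraries, and was 0.03 with replicates 2 and 3 alone. With the GC offset it was -0.63 (SE 0.51), beyond that interval.

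Genes were then grouped by function into 35 lists, each with its count at an unadjusted p under 0.05 and its median log2 fold change. The background is 1.07% of genes higher and 0.588% lower with all libraries, and 3.64% and 2.89% with replicates 2 and 3 alone. No member of any list had an adjusted p under 0.05. Many medians lay near 0, and of the 35 medians 13 changed sign without wild-type replicate 1, 10 without restored replicate 1, 11 with replicates 2 and 3 alone, 6 with the GC offset and 10 with the replicate number as a block. With the block, 2 mitochondrially encoded genes and 6 ribosomal protein genes were higher, the single immediate early gene and the single interferon gene no longer passed, and 1 protocadherin was lower in place of 2.

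The chromatin machinery of KMT2A came first. None of the 6 H3K4 methyltransferases passed, with a median of 0.06 and 4 of 6 intervals within 2-fold. With replicates 2 and 3 alone the median was -0.11 and all 6 lay within 2-fold, and without wild-type replicate 1 alone the median was -0.19. Kmt2d, the enzyme of Kabuki syndrome, had 1051, 3474 and 3936 in wild-type and 2221, 3269 and 4285 in restored cells, so wild-type replicate 1 stood alone. Its log2 fold change was 0.20 and became 0.01 with replicates 2 and 3 alone. None of the 10 complex partners passed, with a median of -0.03. Psip1, which encodes the chromatin tether LEDGF, had 15832, 5204 and 5093 against 7233, 6195 and 6058, and its log2 fold change of -0.44 turned to 0.23 with replicates 2 and 3 alone. Crebbp, an acetyltransferase that binds KMT2A, had 2291, 1332 and 1199 against 1949, 1749 and 1723. Its log2 fold change was 0.15 and became 0.44 (SE 0.13, unadjusted p = 0.00998 with edgeR) with replicates 2 and 3 alone. None of the 12 known targets of KMT2A fusion proteins passed, with a median of 0.05. The median was 0.27 without wild-type replicate 1, -0.06 without restored replicate 1, and 0.24 with replicates 2 and 3 alone, where 1 gene was higher. Meis1, a homeobox gene among them, had 896, 842 and 776 in wild-type and 676, 582 and 764 in restored cells, without overlap (log2 fold change -0.33, SE 0.19). Meis1 was at -0.28 (unadjusted p = 0.123 with edgeR) on replicates 2 and 3 alone, and at -0.34 (unadjusted p = 0.135 with edgeR) with the GC offset on all libraries. With the GC offset on replicates 2 and 3 alone it was at -0.46 (unadjusted p = 0.0148 with edgeR), and 1 gene of the list was then higher and 1 lower.

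Markers of progenitor and regional identity did not pass with all libraries either. Of 17 neural progenitor markers 0 passed with all libraries (median -0.11) and 2 were lower with replicates 2 and 3 alone (median -0.06; 0 lower with the GC offset as well), and their summed level ran from 9808 to 15799 CPM in wild-type and from 8754 to 11225 CPM in restored cells. Pax6, a transcription factor of radial glia, had 1245, 1052 and 1017 against 862, 949 and 905, and Fabp7, a fatty-acid-binding protein of radial glia, had 212188, 100872 and 67516 against 82476, 57694 and 117069. The log2 fold change of Pax6 was -0.30 (SE 0.18), and -0.18 with replicates 2 and 3 alone. With the GC offset on all libraries it was -0.33 (unadjusted p = 0.0430 with edgeR). The log2 fold change of Fabp7 was -0.59, and 0.03 with replicates 2 and 3 alone. None passed among 19 dorsal telencephalon and hippocampal factors (median 0.01), 9 ventral telencephalon factors (median -0.17) and 10 midbrain and hindbrain factors (median -0.38), the last at summed levels of 5.04 to 12.3 CPM. Nr2f1, which patterns the cortex, had 3186, 7979 and 6151 against 4122, 5496 and 4818. Its log2 fold change was -0.27, and -0.47 (unadjusted p = 0.0238 with edgeR) with replicates 2 and 3 alone, where the GC offset gave -0.30 (unadjusted p = 0.237).

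Markers of the differentiated cells that such cultures can form came next. Of 14 astrocyte markers, 13 had a negative log2 fold change, with a median of -0.32, and none passed. With replicates 2 and 3 alone the median was -0.48 and 4 of the 14 were lower at an unadjusted p under 0.05, or 1 of the 14 with the GC offset as well. Aqp4, the water channel of astrocytes, had 169, 2512 and 652 in wild-type and 426, 338 and 393 in restored cells, and Gfap, their intermediate filament, had 1604, 7800 and 1506 against 2079, 1249 and 1975. Wild-type replicate 2 was the highest library for both genes, and without it the log2 fold change was -0.12 for Aqp4 and 0.16 for Gfap, against -1.53 and -1.05 with all libraries. None of 18 neuron markers passed (median -0.04). Reln, the secreted protein that positions migrating neurons, had 990, 791 and 699 against 438, 349 and 719, whereas Nefl, a neurofilament subunit, had 36.6, 68.0 and 48.9 against 80.3, 48.0 and 94.2. Of the 18 markers, 7 had a positive log2 fold change. None of 12 oligodendrocyte lineage markers passed (median 0.00).

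Markers of cells that a hippocampal dissection could carry along were low in all 6 libraries. Summed levels were 2.99 to 5.10 CPM for 9 microglia genes, 5.77 to 10.5 CPM for 7 endothelial genes, 17.1 to 25.9 CPM for 11 mural, fibroblast and meningeal genes, 4.87 to 35.1 CPM for 7 ependymal and choroid plexus genes, and at most 1.28 CPM for 2 red blood cell genes. None of the tested members of these lists passed, with medians of -0.22, -0.07, -0.20, -0.24 and 0.64. On replicates 2 and 3 alone, 2 of 7 microglia genes (median 0.38) and 1 of 6 endothelial genes (median 0.15) were higher, or 1 and 1 with the GC offset as well. In bulk samples, fewer cells of a type and less RNA per cell cannot be told apart.

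The proliferation lists depended on which libraries entered. None of 15 S-phase genes (median -0.06) and none of 15 mitosis genes (median -0.20) passed, and with replicates 2 and 3 alone the medians were 0.10 and 0.30. They were 0.16 and 0.50 without wild-type replicate 1 alone, and -0.08 and -0.43 without restored replicate 1 alone. Mitosis genes summed to 4634, 826 and 2045 CPM in wild-type and to 2472, 1767 and 2114 CPM in restored cells. The wild-type libraries thus spread more than 5-fold and enclosed the restored libraries. Cenpf, a kinetochore protein, had 12554, 1808 and 3850 normalized counts against 5165, 3533 and 4759, and its log2 fold change was -0.46, turning to 0.53 with replicates 2 and 3 alone. Ube2c, the ubiquitin-conjugating enzyme of the anaphase-promoting complex, had 1547, 894 and 2313 against 2868, 1908 and 2102. Mcm4, of the replicative helicase, had 4550, 1089 and 2073 against 2154, 1415 and 1877. None of 15 CDK inhibitors and p53 targets passed (median 0.04), a list that does not hold the p53 target Pmaip1 described above.

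In the stress and metabolism lists, 1 of 12 immediate early genes was higher and none lower, with a median of -0.17. Fos, a member of that list, had 849, 287 and 410 in wild-type and 492, 316 and 237 in restored cells. None of 15 genes of the unfolded protein and integrated stress response (median -0.19), none of 18 glycolysis and hypoxia genes (median 0.19, and -0.08 without wild-type replicate 1) and none of 19 cholesterol synthesis genes (median -0.07) passed. The glycolysis list does not hold Pfkfb3, described above. Nsdhl, a sterol dehydrogenase, had 1641, 926 and 738 against 777, 713 and 899. Of 13 interferon and MHC class I genes, 1 was lower and none higher, with a median of -0.07.

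The signaling lists had no member past the threshold with all libraries: 15 Notch genes (median -0.07), 20 Wnt genes (median -0.04), 14 EGF and FGF genes (median -0.02), 16 BMP and ID genes (median -0.17) and 12 Hedgehog genes (median -0.03). On replicates 2 and 3 alone, 3 of the 15 Notch genes were lower (median -0.25), 1 of the 14 EGF and FGF genes was higher and 2 were lower, and 1 of the 12 Hedgehog genes was lower. With the GC offset on these libraries, 2 Notch genes were lower (median -0.14), no EGF or FGF gene passed, and 1 Hedgehog gene was higher and none lower. The receptor gene Notch2 had 3029, 7158 and 6225 in wild-type and 3783, 3956 and 4613 in restored cells, so the restored libraries lay between wild-type replicate 1 and the others. Its log2 fold change was -0.42 (SE 0.29), and -0.66 (SE 0.16, unadjusted p = 0.00331 with edgeR) with replicates 2 and 3 alone. Wnt5a, a ligand of non-canonical Wnt signaling, had 3803, 3827 and 4753 against 5873, 6344 and 4647, with a single restored library inside the wild-type range. Fgfr2, a receptor for the FGFs, had 1227, 1487 and 1085 against 1140, 992 and 1082, and Etv5, a transcription factor induced by FGF signaling, had 7270, 7245 and 11917 against 10317, 11932 and 11138. Smad9, a transducer of BMP signals, had 173, 169 and 85 against 94, 84 and 90. Boc, a co-receptor for Sonic hedgehog, had 483, 1324 and 1030 against 714, 907 and 818, and was the Hedgehog gene that was lower with replicates 2 and 3 alone (log2 fold change -0.46, unadjusted p = 0.0276 with edgeR).

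Of 79 ribosomal protein genes, 3 were higher and 1 lower, and 60 had a positive log2 fold change, with a median of 0.18, where 48.1% of all genes tested were positive. Among replicates 2 and 3 alone, 9 were higher and 1 lower, with a median of 0.35. Restored replicate 3, the library with the largest share of ribosomal protein counts, summed to 39011 CPM, whereas the other restored libraries had 24173 and 24247 CPM and the wild-type libraries 25038, 22900 and 29502 CPM. Rps27 had 2676, 3565 and 3806 normalized counts in wild-type and 6565, 3365 and 10595 in restored cells, and Rps7 had 3365, 4991 and 4954 against 7419, 4878 and 9136. For Rps13, at 4081, 3327 and 3880 against 4979, 4113 and 8256, the ranges did not overlap. Of 73 nuclear genes of the respiratory chain, 49 were positive and 1 was higher, Atp5mpl, a subunit of ATP synthase, at 1138, 1291 and 1258 against 2060, 1408 and 3369. The median of that list was 0.10, and with replicates 2 and 3 alone 8 of the 73 were higher (median 0.16). Restored replicate 3 summed to 11518 CPM over this list, against 8367 and 8988 CPM in the other restored libraries and 8638 to 10118 CPM in wild-type.

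None of the 13 mitochondrially encoded genes passed, and 6 were positive (median -0.02), while 5 were higher with replicates 2 and 3 alone (median 0.42). The median was 0.90 without wild-type replicate 1 alone and -0.36 without restored replicate 1 alone. The GC offset on replicates 2 and 3 alone gave a median of 0.07. They summed to 137281, 57693 and 38927 CPM in wild-type and 105082, 62356 and 57577 CPM in restored libraries. The complex I genes mt-Nd3, mt-Nd4l and mt-Nd6 had unadjusted p-values of 0.0140, 0.0321 and 0.0361 (edgeR) with replicates 2 and 3 alone, with log2 fold changes of 1.26, 0.76 and 0.83. The GC offset on these libraries gave 0.85, 0.56 and 0.47, with unadjusted p-values of 0.0337, 0.0799 and 0.0952 (edgeR), and left 1 of the 13 genes past the threshold. With all libraries their log2 fold changes were 0.57, 0.80 and 0.90 and none passed, whereas the GC offset on all libraries gave 0.75, 0.83 and 0.85, with unadjusted p-values of 0.0339, 0.00976 and 0.0102 (edgeR). With the replicate block on all libraries, mt-Nd4l (0.77, unadjusted p = 0.0420) and mt-Nd6 (0.91, unadjusted p = 0.0213) passed in edgeR, and mt-Nd3 (0.73, unadjusted p = 0.159) did not.

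Of the remaining lists, none of 19 imprinted genes passed (median -0.02). With replicates 2 and 3 alone, 1 was higher and 1 lower (median 0.08), and also 1 and 1 with the GC offset as well. Zrsr1, an imprinted gene for a splicing factor, had 509, 1042 and 915 in wild-type and 585, 1012 and 1928 in restored cells. Of 23 clustered protocadherins, adhesion proteins that give neurons their surface identity, 2 were lower and none higher, with a median of -0.27, and 3 were lower with replicates 2 and 3 alone (median -0.23), or 6 with the GC offset as well. Pcdhb20 had 641, 559 and 458 against 424, 374 and 353, without overlap (log2 fold change -0.54, SE 0.23), with 346, 480 and 406 in nes-cre+/- and 350, 450 and 366 in Kmt2a+/LSL. The Kmt2a+/LSL libraries thus also lay below every wild-type library. None of 7 Hox genes passed (median -0.13), at a summed level of 1.24 to 4.15 CPM. Their median was 0.60 without wild-type replicate 1 and 0.52 with replicates 2 and 3 alone. None of the 4 Y-linked genes passed (median -0.08).

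**Figure D5:**
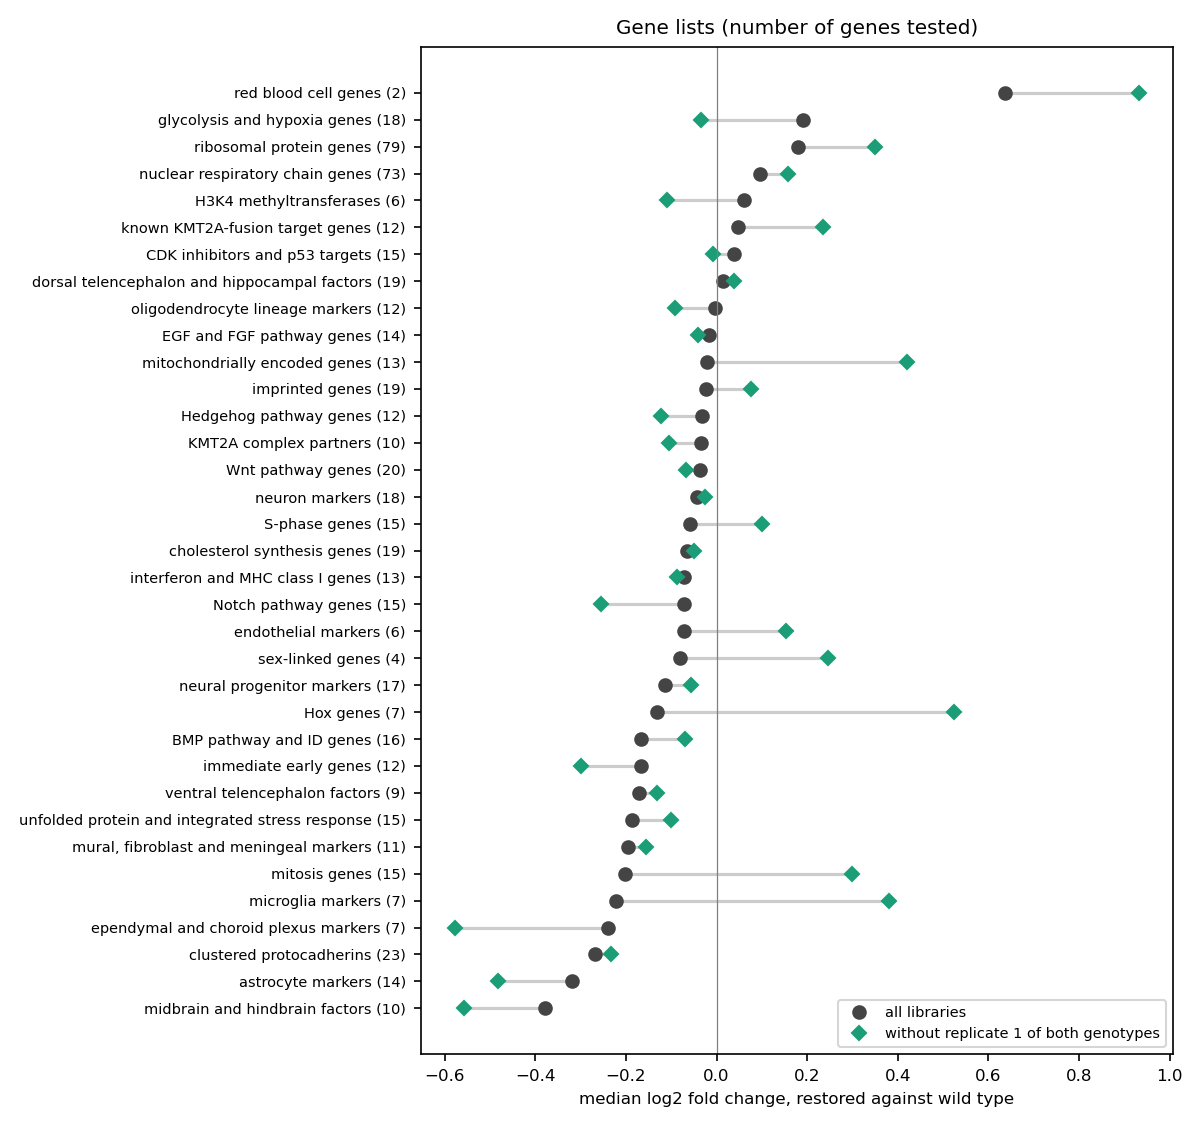
Median log2 fold change of restored against wild-type for the 35 gene lists (horizontal axis, number of genes tested in brackets), with all libraries (circles) and with replicates 2 and 3 alone (diamonds). The medians of mitosis and mitochondrially encoded genes move from -0.20 and -0.02 to 0.30 and 0.42, while astrocyte markers stay below 0 in both.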

How the data were processed

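The authors quantified poly(A)-selected RNA-Seq reads with kallisto 0.48.0 against mm10 and summed the transcripts of each gene with tximport. What the authors deposited are estimated counts, whole numbers without normalization, and the count test was run on them unchanged. All 12 columns entered, and 18718 of 18911 Ensembl identifiers had a symbol, a length and a GC content in the GRCm38 annotation.

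Computations used R 4.3.3, edgeR 4.0.16, limma 3.58.1 and DESeq2 1.42.0. A gene was kept where its counts summed to more than 10 and at least 2 of the fitted libraries had any. Counts were normalized with TMM and tested, two-sided, with edgeR's quasi-likelihood F-test on 9 libraries, the 6 compared and the 3 of Kmt2a+/LSL, with genotype as the only term and Benjamini-Hochberg adjustment over all genes tested. The Kmt2a+/LSL libraries enter the estimate of spread, not the fold change, and all 3 stay in the fit where wild-type and restored replicates 1 are left out. SE is the absolute log2 fold change divided by the root of F, and 95% intervals use the t distribution. Normalized counts are counts divided by TMM library sizes of the 12 libraries, scaled to their geometric mean. The fits were also run on simulated counts without an outlying library or a GC trend, so their behavior on libraries such as wild-type replicate 1 was not tested.

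Alternatives were DESeq2's Wald test with and without an empirical null fitted to the central 75% of z-scores, limma-voom with quality weights, robust and legacy edgeR, DESeq2 size factors, 2 other filters, 6 or 12 libraries, the replicate block, and libraries left out. Offsets for GC content or transcript length (loess, span 0.5) were chosen after seeing the data. The replicate numbers come from the labels, which name no litter or batch. Deviations from the genotype means correlated by 0.42, 0.30 and 0.15 between same-numbered wild-type and restored libraries, so the block was taken as a pairing, though wild-type replicate 3 and restored replicate 2 also correlated by 0.29. The study calls the libraries biological replicates, and the sources used here do not give the animals behind each, so p-values measure the spread between these libraries, which may be partly technical. Floors cover counting error only.

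Named genes are Kmt2a, Grb10, Dmrt3 and Nek7, genes called after adjustment, the 10 highest and 10 lowest by the conditions in the text, and from each list up to 3 genes with the smallest p and a mean of at least 50, of which some are not reported here. The comparison, the lists and these genes were chosen with earlier results of these data known.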

Additional observations from a re-analysis of the deposited data

How the results depend on the processing

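The number of genes with an adjusted p under 0.05 was 0 in edgeR with all libraries. It was 7 with DESeq2, 195 with the DESeq2 empirical null (null SD 0.600), 1 with 12 libraries, and 0 under all other settings, every library left out included. At an adjusted p under 0.1 it was 0 in edgeR with all libraries, 289 with the empirical null, 7 with DESeq2, 3 without wild-type replicate 1, 1 each with limma-voom, with 12 libraries and without replicate 1 of both genotypes, and 0 under the other settings. The number at an unadjusted p under 0.05, 277, became 1688 with the empirical null, 736 with limma-voom, 80 with at least 10 counts in every library, 183 with 6 libraries, 1067 without replicate 1 of both genotypes, 442 with the GC offset, 448 with the GC offset and the block, and 796 with the GC offset and without replicate 1 of both genotypes. It ran from 254 to 1830 when single libraries were left out. The share of genes within 2-fold stayed between 31.6% and 61.6%. With the replicate block as a pairing, the counts were 0 and 283, the share was 49.1%, Kmt2a was at -0.10, and no adjusted call changed. Of the 277 genes, 197 were among the 283, and Emsy and Ttc41 moved to unadjusted p-values of 0.0529 and 0.0596 (edgeR). The median of the genes lower in Kmt2a+/LSL became 0.10 with the block, and with single libraries left out it ran from -0.074 to 0.069, and that of the genes higher in Kmt2a+/LSL from -0.083 to 0.053. Kmt2a kept its direction under every setting. Signs turned for some of the named genes. With wild-type replicate 1 left out, Kmt2d was at -0.20, Psip1 at 0.33, Fabp7 at 0.017, Cenpf at 0.65 and Mcm4 at 0.19. Without it and restored replicate 1, Psip1 was at 0.23, Fabp7 at 0.035, Cenpf at 0.53, Mcm4 at 0.034 and Dmrt3 at 0.030, and with the GC offset as well, Psip1 was at 0.064, Cenpf at 0.36 and Dmrt3 at 0.22. Without wild-type replicate 2, Gfap was at 0.16, Nr2f1 at 0.027 and Boc at 0.084, and without restored replicate 3, Zrsr1 was at -0.042. With limma-voom, Kmt2d was at -0.072, Psip1 at 0.24, Cenpf at 0.74 and Mcm4 at 0.23. With libraries left out, singly or replicate 1 of both genotypes, Grb10 ran from -0.045 to 0.13, Dmrt3 from -0.071 to 0.12, Kmt2d from -0.20 to 0.51, Psip1 from -0.72 to 0.33, Crebbp from -0.022 to 0.51, Fabp7 from -0.89 to 0.035, Nr2f1 from -0.56 to 0.027, Gfap from -1.54 to 0.16, Cenpf from -0.90 to 0.65, Mcm4 from -0.89 to 0.19, Zrsr1 from -0.042 to 0.84 and Boc from -0.54 to 0.084. Crebbp was at -0.033 with the GC offset, Grb10 at -0.046 with the length offset, and Dmrt3 at 0.0060 with the strict filter and 0.0082 with 12 libraries. The cause of these changes was not tested.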

Other observations

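Other genes with large values in this comparison were chosen after their values were seen. Besides Brca2 and Gm5884, 5 genes with a mean normalized count of at least 50 had no count in a whole genotype. For each of them the restored libraries had none. Summed over the 3 wild-type libraries, Sesn3, a stress-induced regulator of mTORC1, had 1033 counts and Zfp799 had 240. The pseudogenes Rpl14-ps1 and Gm10131 had 1378 and 412 counts, and ENSMUSG00000037513 had 628. None of these genes was among the lowest genes described above, so each missed the unadjusted p or the no-overlap condition. Their counts may therefore come from part of the wild-type libraries, and a difference from every wild-type library is not shown.

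Some processed pseudogenes shared every count with another gene. The table holds 6 such genes at a mean of at least 50, in 3 pairs. Gm12895 and Gm12896 both had 0, 490 and 299 normalized counts in wild-type and 13.0, 743 and 19576 in restored replicates 1 to 3, so restored replicate 3 alone carried their high mean. Gm10359 and Gm12671 both had 0, 1511 and 3364 in wild-type and 0, 39.1 and 0 in restored cells. Counts that are equal in every library cannot be assigned to either copy.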
